A study of Rattus norvegicus with 18 samples.

Results

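The ACPC-NP minus CaP difference in gene expression was compared between week 2 and week 6 in repairing rat bone, as the week 6 difference minus the week 2 difference on the log2 scale (the interaction). The 12 libraries were chosen by their labels and make up 4 of the 6 groups of an 18-library series, with 3 libraries each for ACPC-NP at week 2, CaP at week 2, ACPC-NP at week 6 and CaP at week 6. ACPC-NP is a printed polycaprolactone (PCL) scaffold carrying nanoparticles of amorphous calcium phosphate and chitosan, and CaP is the same polymer carrying calcium phosphate microparticles. All animals were wild type, and every scaffold filled a critical-sized defect of the radius, a gap too large to heal unaided. Polyadenylated RNA came from pooled marrow and bone cells next to the implant, and per the labels the marrow had been treated with red blood cell lysis buffer. Whether the 3 libraries of a group are different animals is not stated in the labels, so p-values measure the spread between these libraries, which may be technical in part. Bare PCL libraries entered the fit only to help estimate that spread.

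A calcium phosphate implant first meets macrophages, which clear debris, recruit other cells by chemokines and can fuse into giant cells, while osteoclasts dissolve mineral and osteoblasts lay down new matrix. The marrow beside the defect meanwhile makes red cells, granulocytes, platelets and B cells.

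Total counts ran from 18880604 to 27186587 per library. ACPC-NP week 2 replicate 3 stood apart from the other 11 libraries. Its coordinate on the leading principal component was 91.4, against -23.9 to 25.5 in the others, and Fth1, the ferritin heavy chain, took 3.51% of its counts, against 0.129% to 0.467%. Many results that touch week 2 are therefore given with and without this library. A week 2 or interaction value given only once comes from the fit with all libraries and may depend on this one.

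No gene passed an adjusted p of 0.05 for the interaction with edgeR's quasi-likelihood test and Benjamini-Hochberg adjustment over 11814 genes (0% called in each direction; smallest adjusted p 0.244). At an unadjusted p under 0.05 the interaction was higher for 719 genes (6.09%) and lower for 954 genes (8.08%). DESeq2 called 84 higher (0.711%) and 108 lower (0.914%), and voom with sample quality weights called 113 higher (0.956%) and 56 lower (0.474%). These tools shared 66 higher and 33 lower calls. Without ACPC-NP week 2 replicate 3, DESeq2 called 24 higher and 5 lower genes, of which 23 and 5 were also called with it, while edgeR and voom called 0. In that DESeq2 fit 8568 of 11943 genes had no adjusted p, against 468 of 11814 with all libraries. That edgeR fit had 529 higher (4.43%) and 408 lower (3.42%) genes at an unadjusted p under 0.05, and that voom fit 968 and 875. Every gene value below is therefore an estimate that did not pass edgeR's threshold. The single-week differences were not called either, with 0 genes at week 2 (1371 higher, 11.6%, and 487 lower, 4.12%, at an unadjusted p under 0.05) and 0 at week 6 (518 higher, 4.38%, and 586 lower, 4.96%). DESeq2 and voom called 595 and 376 genes at week 2, and 23 and 71 at week 6.

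The genes were also sorted by whether the 3 ACPC-NP and 3 CaP values, in CPM (counts scaled to a common library size), overlapped at each week. Ranges stood apart for 8.57% of genes with ACPC-NP higher and 7.91% with ACPC-NP lower at week 2, and for 12.3% and 12.5% at week 6. They stood apart at both weeks with opposite signs (a reversal) for 177 genes that were lower beside ACPC-NP at week 2 (1.5%) and 44 genes that were higher there (0.372%). They stood apart with the same sign at both weeks (a hold) for 91 higher (0.77%) and 157 lower genes (1.33%). Ranges apart at week 2 with a difference at least 4 times smaller at week 6 (a fade) were found for 554 higher genes (4.69%) and 169 lower genes (1.43%). The mirror case, ranges apart at week 6 with a difference at least 4 times smaller at week 2 (an emergence), held for 296 higher (2.51%) and 411 lower genes (3.48%). Without ACPC-NP week 2 replicate 3 the fade from higher held for 434 genes, of which 353 were the same, and the reversal from lower for 221. The 177 were bound to be among these 221, because leaving out a library can only narrow a range.

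**Figure D1:**
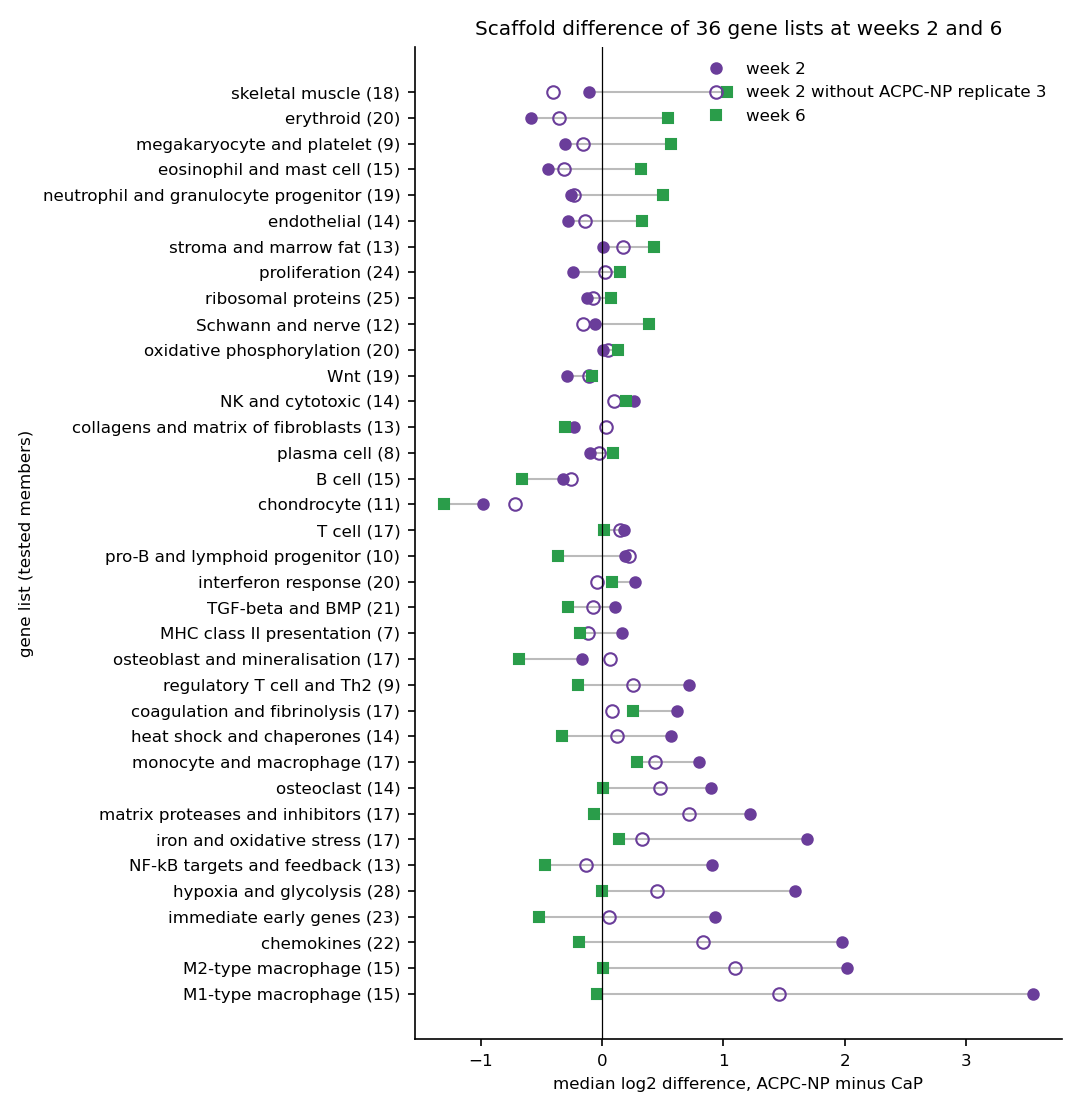
Median log2 difference, ACPC-NP minus CaP, of each of 36 gene lists (vertical axis, tested members in brackets) at week 2 (filled circles), at week 2 without ACPC-NP replicate 3 (open circles) and at week 6 (squares), ordered by the median interaction. The erythroid list moves from -0.58 to 0.55, while the M1-type macrophage list moves from 3.55, or 1.45 without the one library, to -0.04.

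Erythroid genes were lower beside ACPC-NP than beside CaP at week 2 and higher at week 6. Of 20 tested erythroid genes, 19 were below 0 at week 2 and 19 were above 0 at week 6, with median log2 differences of -0.58 and 0.55. At an unadjusted p under 0.05, 11 were lower at week 2 (0 without ACPC-NP week 2 replicate 3), against 4.12% of all genes. Higher at week 6 at such a p were 6, against 4.38% of all genes. The median interaction was 1.16, with 19 above 0 against 48.2% of all genes, and 18 of the 20 were above 0 with an unadjusted p under 0.05, against 6.09% of all genes. The median over all tested genes was -0.02 at week 2, 0.00 at week 6 and -0.02 for the interaction. EdgeR called 0 of the 20 for the interaction. DESeq2 and voom called 4 each as higher, against 0.711% and 0.956% of all genes. Ranges reversed from lower for 9 of the 20, against 1.5% of all genes. Within the ACPC-NP scaffold the list's median change from week 2 to week 6 was 0.75, and within CaP it was -0.39.

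The list score, the mean centred log2 CPM of the 20 genes, gave non-overlapping ranges at both weeks. At week 2 it was 0.46, 0.38 and 0.11 beside CaP and -0.05, 0.01 and -0.81 beside ACPC-NP. At week 6 it was -0.16, -0.15 and 0.19 beside CaP and 0.43, 0.49 and 0.28 beside ACPC-NP. All ACPC-NP libraries thus lay below all CaP libraries at week 2 and above all of them at week 6, and of the 36 lists no other had ranges apart in opposite directions. Leaving out any 1 of the 12 libraries kept the median between -0.81 and -0.35 at week 2 and between 0.47 and 0.66 at week 6, and the median interaction between 0.88 (without ACPC-NP week 2 replicate 3) and 1.40. In bulk RNA, fewer cells of a type and less RNA per cell cannot be told apart. Summed CPM of the list ran from 41781 to 60705 beside CaP and 31251 to 40580 beside ACPC-NP at week 2, and from 32065 to 44618 and 60099 to 80643 at week 6. The bare PCL libraries of week 2 alone spanned 27496 to 57420. How the lysis of red cells varied between libraries was not tested.

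**Figure D2:**
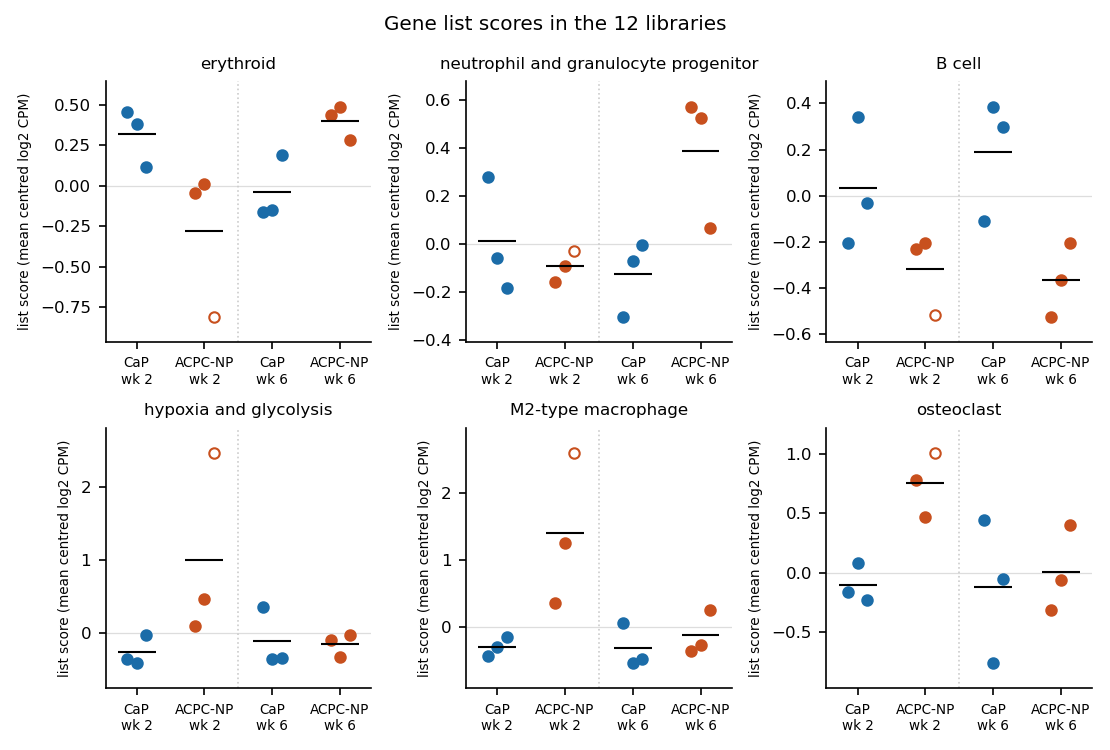
List score (mean centred log2 CPM, vertical axes) of 6 gene lists in each of the 12 libraries, by scaffold and week, with the group mean as a line and ACPC-NP week 2 replicate 3 as an open circle. The erythroid ranges stand apart at both weeks in opposite directions, the B cell scores are lower beside ACPC-NP at both weeks, and the M2-type macrophage and osteoclast scores are higher beside ACPC-NP at week 2.

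Haem and iron genes are given first. Alas2, the erythroid enzyme that starts haem synthesis, measured 2353, 2850 and 2243 CPM beside CaP and 1850, 1922 and 1486 beside ACPC-NP at week 2. The week 6 values were 1445, 1996 and 2210 CPM beside CaP and 3114, 3852 and 2741 beside ACPC-NP. The order of the scaffolds was the opposite at the 2 weeks with no overlap, and the log2 interaction was 1.28 ± 0.36 (SE; edgeR adjusted p = 0.252, DESeq2 adjusted p = 0.0397). Fech, ferrochelatase, which inserts iron into the haem ring, had means of 883 and 592 CPM at week 2 and 612 and 1004 CPM at week 6, CaP before ACPC-NP. Its interaction was 1.29 ± 0.33 (adjusted p = 0.244 with edgeR and 0.0205 with DESeq2), and 1.11 without ACPC-NP week 2 replicate 3. Ncoa4, which delivers ferritin for breakdown and so frees iron and was not on the erythroid list, ran 911, 1004 and 965 against 741, 707 and 534 CPM at week 2. At week 6 it ran 663, 660 and 808 against 1064, 1005 and 915 CPM, an interaction of 1.03 ± 0.23.

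The membrane skeleton and regulators of red cell precursors followed the same course. Epb42, a band 3 partner in the red cell membrane, measured 339, 299 and 278 CPM beside CaP and 249, 216 and 108 beside ACPC-NP at week 2. At week 6 the values were 193, 207 and 222 against 328, 360 and 248 CPM, again without overlap. Klf1, the erythroid transcription factor, differed by -0.71 at week 2 and 0.40 at week 6 (log2). Slc4a1, the anion exchanger band 3 itself, had a log2 interaction of 1.23, and Hbb, the beta globin, one of 1.34. Hba2 was the exception in the list at -2.20. It stood at 0.83 to 21.04 CPM. How the counting treated reads of near-identical alpha globin copies was not tested.

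Genes ranked by the interaction rather than by list membership included further genes of red cell precursors. Trim58, a ubiquitin ligase of late erythroblasts that was not on the erythroid list, measured 106, 96.5 and 78.7 CPM beside CaP and 54.5, 63.6 and 34.9 beside ACPC-NP at week 2. Week 6 gave 42.8, 60.8 and 65.4 against 97.8, 99.0 and 66.9 CPM, an interaction of 1.52 ± 0.33 and 1.31 without the one library. Map4k5, a kinase of the stress pathway, ran 50.9, 60.3 and 57.4 against 42.6, 47.0 and 35.8 CPM at week 2 and 42.0, 40.9 and 48.4 against 66.1, 78.9 and 54.0 CPM at week 6. It had the smallest p of all named genes with a higher interaction, at 1.03 ± 0.20. Cdr2 (1.33), Chac2 (1.34), a glutathione-degrading enzyme, Ppp1r13b (1.11), a partner of p53, and Plcl2 (0.81) reversed as well, while Tusc2 (0.87) overlapped at week 2.

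Without ACPC-NP week 2 replicate 3, DESeq2 still called 24 of 11943 genes as higher, and 8568 of the 11943 had no adjusted p. Among the 24 called were 2 of the 20 tested erythroid list genes, Fech and Epb42. Slc25a37, mitoferrin-1, which carries iron into the mitochondria of erythroblasts, was also among them and is named here after its values were seen. It measured 521, 521 and 574 CPM beside CaP and 447, 420 and 219 beside ACPC-NP at week 2, and 312, 371 and 422 against 544, 563 and 496 CPM at week 6. Ncoa4, Trim58, Cdr2 and Plcl2 were in this set too.

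The upstream sequences of Alas2 and Trim58 are shown because both genes reversed and both hold the AGATAA form of the site read by GATA factors, the regulators of erythroid genes. Each covers the 250 bases before the gene's start in RefSeq (GRCr8), 5′ to 3′ on the gene's strand, at chrX:22895200-22895449 for Alas2 and chr10:43523154-43523403 for Trim58, both on the plus strand, with AGATAA in capitals.
Alas2: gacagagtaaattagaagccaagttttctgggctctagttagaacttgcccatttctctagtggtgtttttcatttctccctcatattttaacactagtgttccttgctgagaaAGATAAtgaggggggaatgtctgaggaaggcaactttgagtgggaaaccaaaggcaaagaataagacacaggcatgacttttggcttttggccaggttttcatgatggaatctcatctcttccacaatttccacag
Trim58: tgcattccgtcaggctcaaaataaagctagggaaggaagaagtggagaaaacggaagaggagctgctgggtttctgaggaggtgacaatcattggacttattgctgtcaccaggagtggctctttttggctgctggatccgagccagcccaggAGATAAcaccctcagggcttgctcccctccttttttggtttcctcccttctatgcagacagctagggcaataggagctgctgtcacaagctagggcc

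AGATAA, searched on both strands, was found in 4 of the 13 erythroid list genes with a RefSeq promoter (30.8%), in 18 of 144 genes that reversed from lower (12.5%), in 5.73% of tested genes and in 10.3% of all 33469 promoter windows. By rank, 24 genes were named for a fade or reversal, and 1 of the 20 with a promoter held AGATAA (5%). The GATA letters and CCNCNCCC, a form of the KLF site, were added after the erythroid values had been seen. CCNCNCCC was found in 9 of 13 erythroid genes (69.2%) and in 63.1% of tested genes.

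**Figure D3:**
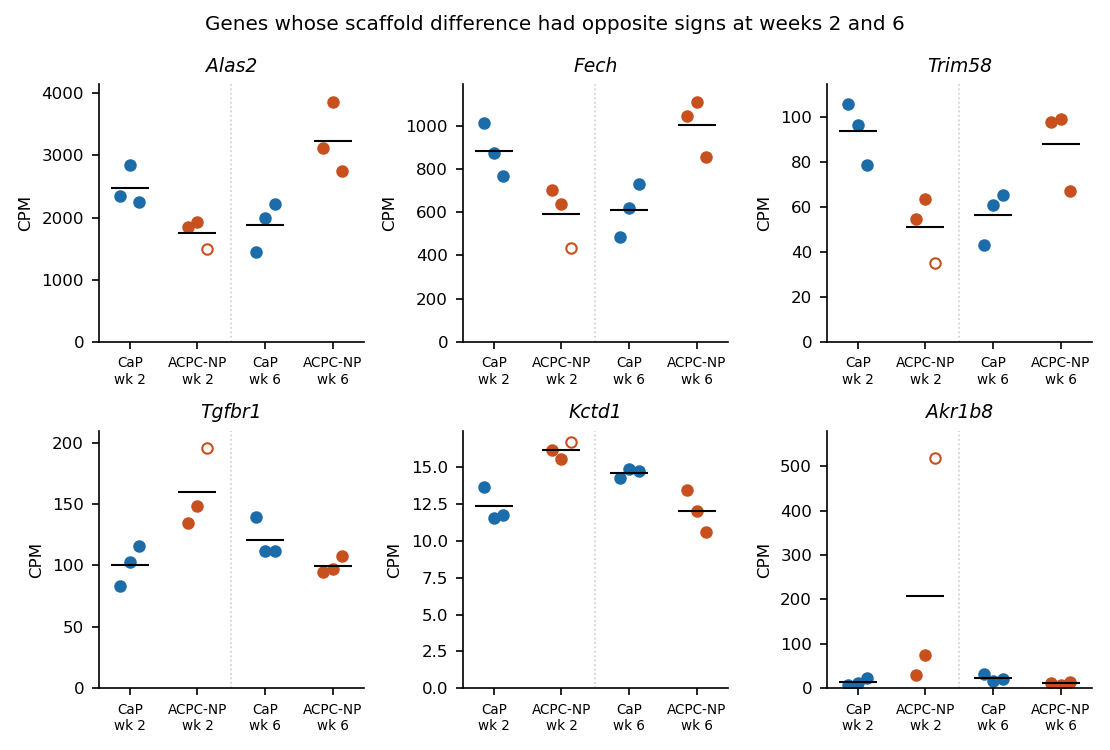
CPM (linear vertical axes starting at 0) of 3 genes that were lower and 3 that were higher beside ACPC-NP at week 2 and had the opposite order at week 6, in the 12 libraries, with group means as lines and ACPC-NP week 2 replicate 3 as an open circle. In each panel the ACPC-NP and CaP values do not overlap at either week.

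The granulocyte, eosinophil and platelet lists had medians of the same signs, with more overlap. Neutrophil and granulocyte progenitor genes had a median of -0.26 at week 2, 0.50 at week 6 and 0.67 for the interaction, with 8 of 19 above 0 and 1 below 0 at an unadjusted p under 0.05, against 6.09% and 8.08% of all genes. With ACPC-NP week 2 replicate 3 left out, 3 of the 19 had such a p in either direction. Of all genes in that fit, 4.43% were higher and 3.42% lower at such a p. Elane, neutrophil elastase, measured 360, 289 and 149 CPM beside CaP and 165, 167 and 114 beside ACPC-NP at week 2, and 131, 209 and 215 against 379, 342 and 227 CPM at week 6. The ranges overlapped at week 2 and stood apart at week 6, with an interaction of 1.62 ± 0.61. Camp, the cathelicidin of neutrophil granules, rested on week 6, at 1546, 1765 and 1986 CPM beside CaP and 3063, 2922 and 2365 beside ACPC-NP.

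Eosinophil and mast cell genes had a median interaction of 0.68 over 15 genes and megakaryocyte and platelet genes one of 0.93 over 9. Without ACPC-NP week 2 replicate 3 these medians were 0.54 and 0.78. The interaction was above 0 at an unadjusted p under 0.05 for 3 of the 15 and 3 of the 9, against 6.09% of all genes. It was below 0 for 0 and 1, against 8.08%. Without that library 1 gene of each list had such a p in either direction, against 4.43% higher and 3.42% lower of all genes. At week 2, 2 of the 9 were higher and 0 lower at such a p, against 11.6% and 4.12%. The platelet list score differed by -0.06 there, with overlap. Prg2, the eosinophil major basic protein, had an interaction of 1.49 ± 0.55, and Epx, eosinophil peroxidase, one of 1.39 ± 0.64. Nfe2, a transcription factor of platelet formation and globin genes, reversed without overlap. It ran 357, 306 and 335 against 264, 257 and 289 CPM at week 2 and 247, 277 and 309 against 412, 387 and 334 CPM at week 6. Skeletal muscle genes had a median interaction of 1.16 as well, but their summed CPM was 897 in ACPC-NP week 6 replicate 3 against 69.2 to 291 in the other 11 libraries, and 1 of 18 had an unadjusted p under 0.05.

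The 44 genes with the opposite reversal, higher beside ACPC-NP at week 2 and lower at week 6, included a receptor of the TGF-beta pathway, which governs matrix and bone cell differentiation. Tgfbr1, the type I receptor, measured 83.2, 103 and 116 CPM beside CaP and 135, 148 and 196 beside ACPC-NP at week 2. At week 6 it measured 140, 112 and 112 against 94.3, 97.3 and 108 CPM, an interaction of -0.95 ± 0.21 (edgeR adjusted p = 0.244, DESeq2 adjusted p = 0.0178). Both weeks were free of overlap, and without ACPC-NP week 2 replicate 3 the interaction was -0.77. Tgfbr2, the type II receptor, had an interaction of -0.83 ± 0.24 with overlapping ranges. Over the 21 TGF-beta and BMP genes the median interaction was -0.39, with 5 below 0 and 1 above 0 at an unadjusted p under 0.05, against 8.08% and 6.09% of all genes. Leaving out ACPC-NP week 2 replicate 3 gave a median of -0.26, and 3 had such a p in either direction. Of all genes in that fit, 4.43% were higher and 3.42% lower at such a p.

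Kctd1, a transcriptional corepressor, had narrow ranges, at 13.6, 11.6 and 11.8 CPM beside CaP and 16.2, 15.5 and 16.7 beside ACPC-NP at week 2. The week 6 values were 14.3, 14.9 and 14.8 against 13.5, 12.1 and 10.6 CPM, and its interaction was -0.67 ± 0.15 with the one library and -0.64 without it. Camk2d, a calcium-dependent kinase, had an interaction of -0.95, Atp9b, a lipid flippase family member, -0.59, and Mtpap, the mitochondrial poly(A) polymerase, -0.49. Akr1b8, an aldo-keto reductase, was the largest of the named ones at -4.93 ± 1.13. It measured 6.82, 11.5 and 22.9 CPM beside CaP and 29.1, 74.6 and 518 beside ACPC-NP at week 2, then 31.3, 17.2 and 21.4 against 11.4, 7.76 and 15.3 CPM. The week 2 size rested on 1 library, and without it the interaction was -2.93.

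Stress chaperones were among the reversals. Hspa8, the constitutive Hsc70, ran 531, 485 and 543 against 668, 624 and 1034 CPM at week 2 and 1132, 691 and 654 against 638, 533 and 600 CPM at week 6. Its interaction was -1.06 ± 0.30. Hspa1b, an inducible Hsp70, had the smallest p of all named genes with a lower interaction, at -6.07 ± 1.29. It stood at 2.59, 2.30 and 3.19 CPM beside CaP and 7.36, 9.46 and 107 beside ACPC-NP at week 2, and at 11.8, 2.27 and 15.5 against 1.15, 1.94 and 3.64 CPM at week 6. The week 6 ranges overlapped, the interaction was -3.77 without the one library, and Hspa1a is a near-identical copy (-5.79 and -2.78) whose reads cannot be separated with certainty. Over the 14 heat shock and chaperone genes the median was 0.57 at week 2, -0.33 at week 6 and -0.70 for the interaction, with 0.12 at week 2 and -0.39 for the interaction without the one library.

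M1-type and M2-type macrophage genes lay higher beside ACPC-NP at week 2 and near 0 difference at week 6. The general monocyte and macrophage list went from a median of 0.80 (0.44 without ACPC-NP week 2 replicate 3) to 0.29 over 17 genes, with 13 above 0 at week 6 against 50.3% of all genes. M2-type macrophage genes, a list of markers of alternatively activated and tissue macrophages, were higher beside ACPC-NP at week 2 by a median of 2.02 and stood at 0.01 at week 6, and M1-type genes, markers of inflammatory activation, went from 3.55 to -0.04. Without ACPC-NP week 2 replicate 3 the median interactions were -1.42 and -1.26, against -2.17 and -3.43 with it. Unadjusted p under 0.05 with a lower interaction was found for 9 of 15 M2-type and 11 of 15 M1-type genes, against 8.08% of all genes. Leaving that library out, 5 of each had such a p in either direction, against 4.43% higher and 3.42% lower of all genes. Ranges faded from higher for 6 of 15 M2-type and 2 of 15 M1-type genes, against 4.69% of all genes. The M1-type score ranges overlapped at week 2. On the ACPC-NP side the M1-type median changed by -3.50 from week 2 to week 6, while beside CaP it changed by 0.01. Summed CPM of the M1-type list was 1391, 4256 and 39737 in the ACPC-NP week 2 libraries and 595 to 1905 in the other 9 of these groups.

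Gpnmb, a lysosomal glycoprotein of macrophages and osteoclasts, measured 246, 178 and 279 CPM beside CaP and 1064, 2075 and 10021 beside ACPC-NP at week 2. At week 6 it measured 1056, 275 and 250 against 247, 264 and 698 CPM. All ACPC-NP libraries were above all CaP libraries at week 2 and the ranges overlapped at week 6, where CaP replicate 1 was the highest. The interaction was -4.61 ± 1.07, and -3.13 without the one library.

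Slc7a2, the arginine transporter that feeds arginase and nitric oxide synthase, ran 9.54, 8.99 and 17.99 against 37.0, 128 and 851 CPM at week 2 and 51.5, 22.0 and 15.3 against 19.6, 11.7 and 33.8 CPM at week 6. Its interaction was -5.25 ± 1.21, and -3.22 without ACPC-NP week 2 replicate 3. Apoe, a lipid carrier secreted by macrophages, ran 471, 353 and 415 against 1085, 1829 and 4275 CPM at week 2, with an interaction of -2.83 ± 0.72 and -2.12 without the one library. Arg1 and Nos2, which share arginine as substrate, were listed high mainly in that library, at 21.1, 176 and 1540 CPM and 201, 890 and 6367 CPM beside ACPC-NP at week 2. Their interactions were -4.65 and -3.83 with it and -2.10 and -1.64 without it. Cd68, a lysosomal macrophage marker, ran 136, 138 and 170 against 296, 302 and 664 CPM at week 2, with overlapping values at week 6.

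Il1rn, the secreted antagonist of interleukin 1, measured 129, 139 and 159 CPM beside CaP and 282, 1061 and 6396 beside ACPC-NP at week 2, then 285, 132 and 154 against 173, 147 and 256 CPM. Its interaction was -4.17 ± 1.05, and -2.23 without the one library, where DESeq2 still called it. Il1b, the cytokine itself, had an interaction of -2.97 that shrank to -0.79 without that library, with overlapping ranges at week 2. Cd274, the checkpoint ligand PD-L1, had an interaction of -4.97 and then -2.55, Il10, an anti-inflammatory cytokine, -4.05 and then -1.75, and F3, tissue factor, which starts coagulation, -5.08 and then -2.66.

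Of 22 chemokine genes, 15 had a lower interaction at an unadjusted p under 0.05, against 8.08% of all genes, with a list median of 1.97 at week 2 and -0.19 at week 6. When ACPC-NP week 2 replicate 3 was left out, the week 2 median was 0.83 and the median interaction was -0.89 instead of -2.15. In that fit 8 had such a p in either direction, against 4.43% higher and 3.42% lower of all genes. Ccl4, a chemokine of monocytes and T cells, stood at 3.12, 5.86 and 4.42 CPM beside CaP and 8.66, 42.6 and 207 beside ACPC-NP at week 2, and at 5.94, 4.27 and 3.75 against 3.12, 1.94 and 6.04 CPM at week 6. Cxcl3, a neutrophil attractant, had an interaction of -5.34 ± 1.41, and -2.71 without the one library. In each of these genes replicate 1 of ACPC-NP at week 2 was the closest of its group to the CaP values.

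The sequences upstream of Gpnmb and Il1rn are shown as the fading genes that hold a site of an inflammatory transcription factor. They are the 250 bases before each start in RefSeq (GRCr8), at chr4:79340878-79341127 and chr3:27520072-27520321, both on the plus strand, with the AP-1 letters TGANTCA in capitals for Gpnmb and the NF-kB letters in capitals for Il1rn (GGG, any 2 bases, then TTTCC).
Gpnmb: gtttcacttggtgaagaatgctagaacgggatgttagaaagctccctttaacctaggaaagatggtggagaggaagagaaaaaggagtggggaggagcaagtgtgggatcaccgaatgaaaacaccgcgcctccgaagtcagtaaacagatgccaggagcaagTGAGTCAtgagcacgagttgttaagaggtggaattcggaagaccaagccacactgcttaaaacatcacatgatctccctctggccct
Il1rn: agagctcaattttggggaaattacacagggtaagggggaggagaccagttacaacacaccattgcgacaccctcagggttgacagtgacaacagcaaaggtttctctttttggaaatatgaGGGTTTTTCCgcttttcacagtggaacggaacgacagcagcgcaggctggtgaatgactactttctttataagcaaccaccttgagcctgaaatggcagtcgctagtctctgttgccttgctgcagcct

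On both strands, TGANTCA was found in 31 of 421 genes that faded from higher (7.36%) and in 4.62% of tested genes, and the NF-kB letters in 10 of 421 (2.38%) and 1.57%. Of the 20 M1-type and M2-type list genes with a promoter, 4 held the NF-kB letters and 2 the AP-1 letters. By rank, 24 genes were named for a fade or reversal, and 20 of them had a promoter. The AP-1 letters were found in 1 of these 20 (5%) and the NF-kB letters in 1 (5%).

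**Figure D4:**
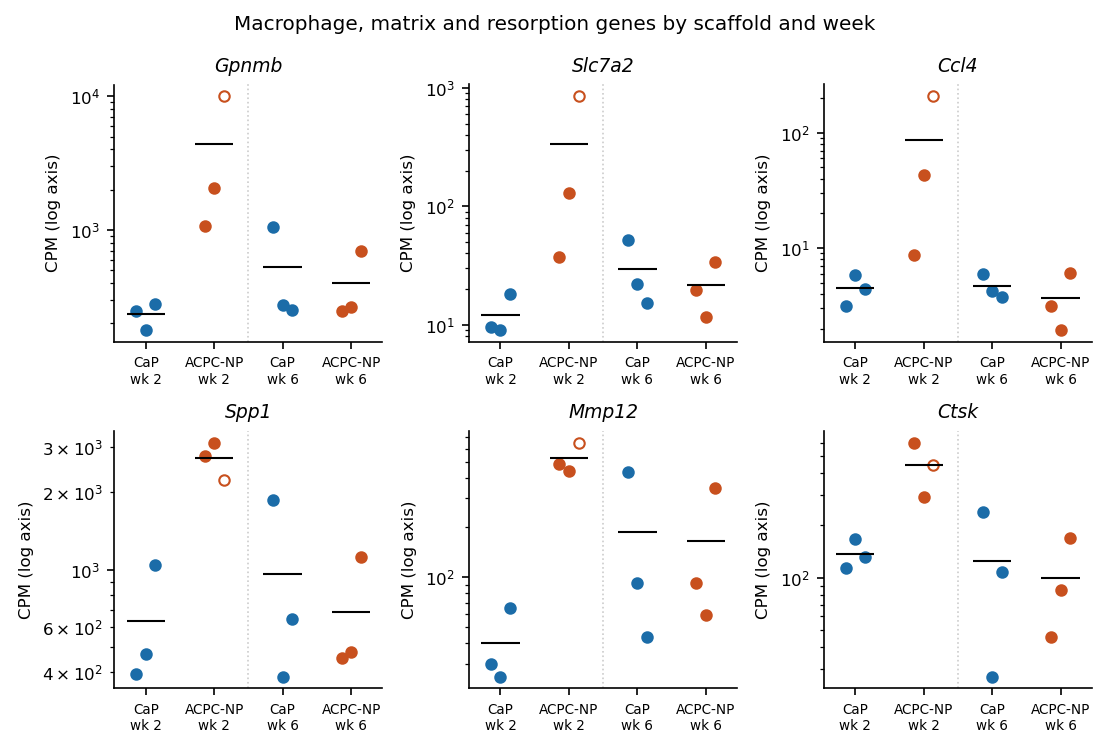
CPM (log vertical axes) of 6 genes of macrophages, matrix breakdown and resorption in the 12 libraries by scaffold and week, with group means as lines and ACPC-NP week 2 replicate 3 as an open circle. All 3 ACPC-NP values lie above the CaP values at week 2 and the ranges overlap at week 6; for Spp1 the open circle is the lowest of its group.

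Some matrix and resorption genes had differences at week 2 that rested less on the library that stood apart. Spp1, osteopontin, which binds mineral and integrins, measured 394, 471 and 1039 CPM beside CaP and 2773, 3114 and 2239 beside ACPC-NP at week 2. Week 6 gave 1862, 385 and 643 against 454, 480 and 1124 CPM. The interaction was -2.58 ± 0.83 (edgeR adjusted p = 0.267) and -2.70 without ACPC-NP week 2 replicate 3. Mmp12, macrophage elastase, ran 30.0, 25.0 and 65.1 against 487, 438 and 651 CPM at week 2 and 431, 91.6 and 43.6 against 92.3, 59.4 and 348 CPM at week 6. Its interaction was -3.89 ± 1.11, and -3.71 without the library. Mmp14, the membrane-bound collagenase, had an interaction of -2.50 ± 0.91.

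Osteoclast genes had a median of 0.90 at week 2 (0.48 without ACPC-NP week 2 replicate 3) and 0.01 at week 6. The median interaction was -0.96 over 14 genes, and -0.51 without the library, with 8 below 0 and 1 above 0 at an unadjusted p under 0.05 in the full fit, against 8.08% and 6.09% of all genes. Ctsk, cathepsin K, which degrades bone collagen, ran 114, 168 and 131 against 599, 290 and 448 CPM at week 2 and 239, 27.0 and 108 against 45.5, 85.5 and 169 CPM at week 6. Siglec15, a receptor that promotes osteoclast fusion, had an interaction of -2.66 ± 0.84 with its highest value at 5.35 CPM.

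Nfatc1, the transcription factor that commits precursors to the osteoclast fate, differed less but tightly, at 66.0, 69.1 and 62.9 against 98.3, 86.0 and 109 CPM at week 2 and an interaction of -0.62 ± 0.17. Acp5, the resorption enzyme TRAP, had one of -1.31 ± 0.41. Gal, the neuropeptide galanin, faded as well. It stood at 2.22, 2.05 and 1.30 CPM beside CaP and 10.4, 6.11 and 16.6 beside ACPC-NP at week 2, and at or below 1.09 CPM in all 6 libraries of week 6.

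CaP week 6 replicate 1 was the highest CaP library of its week for Gpnmb, Slc7a2, Spp1, Mmp12 and Ctsk. The 100 genes with the smallest unadjusted p among those higher beside ACPC-NP at week 2 (mean log2 CPM of at least 1) were read at week 6 to see whether they kept their sign: 47% did, against 50.3% of all genes. Without CaP week 6 replicate 1 the share was 86%, and without ACPC-NP week 6 replicate 3 it was 26%, so the share depended on single libraries. Of the 100 chosen the same way among lower genes, 42% kept their sign, against 49.7% of all genes. Leaving out single libraries gave 16% to 64%. In the other direction, of the 100 with the smallest p among genes higher at week 6, 17% had been higher at week 2, against 47% of all genes, with 11% to 34% on leaving out single libraries. Of the 100 with the smallest p among those lower at week 6, 73% had been lower at week 2, against 53%, with 51% to 92%. Week 2 and week 6 share no library, and over all genes the differences of the 2 weeks had Pearson r = -0.0726, a description across genes that are not independent replicates.

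**Figure D5:**
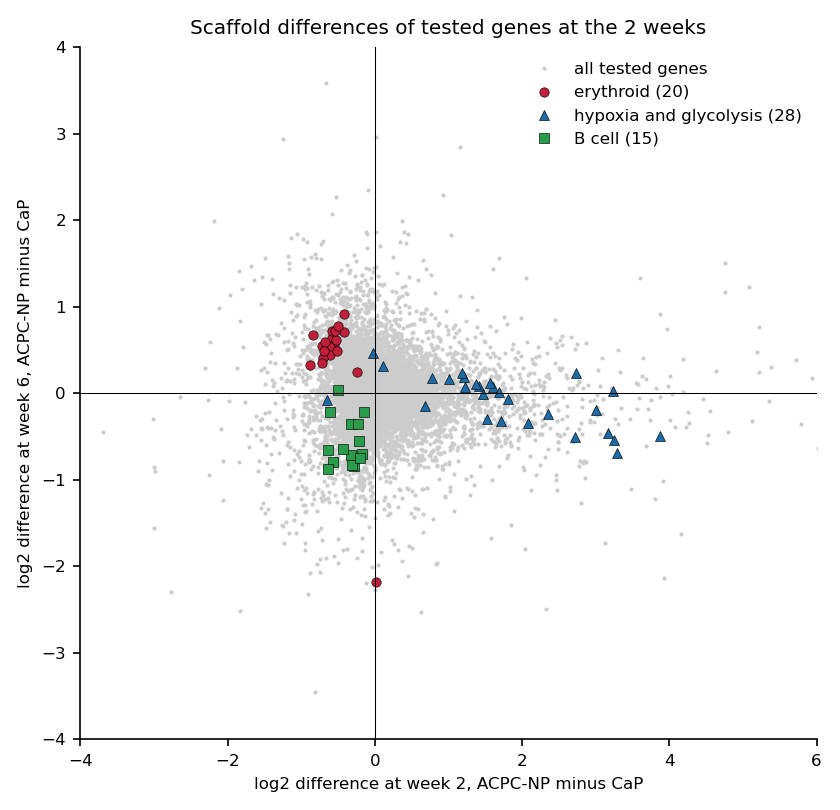
Log2 difference, ACPC-NP minus CaP, at week 2 (horizontal axis) and week 6 (vertical axis) for all tested genes (grey; 11 genes lie beyond the axes) and for the erythroid, hypoxia and glycolysis, and B cell lists. Erythroid genes lie to the upper left, hypoxia genes along the right of the horizontal axis and B cell genes to the lower left.

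Most hypoxia and glycolysis genes faded. Of 28 genes, 26 were above 0 at week 2 (median 1.59), the week 6 median was 0.00, and 21 had a lower interaction at an unadjusted p under 0.05, against 8.08% of all genes (51.8% had an interaction below 0). Ranges faded from higher for 18 of 28, against 4.69% of all genes. The size depended on ACPC-NP week 2 replicate 3, and without it the week 2 median was 0.45 and the median interaction -0.46. In that fit 6 of 28 had such a p in either direction, against 4.43% higher and 3.42% lower of all genes. Slc2a1, the glucose transporter GLUT1, measured 41.7, 59.8 and 98.5 CPM beside CaP and 112, 303 and 2506 beside ACPC-NP at week 2, then 166, 71.5 and 69.0 against 76.7, 46.3 and 93.6 CPM. Egln3, the hydroxylase that marks hypoxia-inducible factors for breakdown and is itself their target, reversed. It ran 24.8, 27.9 and 28.2 against 34.9, 70.8 and 543 CPM and then 42.5, 36.3 and 35.1 against 33.5, 32.0 and 33.9 CPM, with an interaction of -3.20 and -1.16 without the library. Vegfa, the vessel growth factor, had one of -2.04 that shrank to -0.43.

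The sequence upstream of Slc2a1 is shown because it holds ACGTG, the core letters bound by hypoxia-inducible factors, in capitals. It is the 250 bases before the start in RefSeq (GRCr8), at chr5:138002272-138002521 on the plus strand.
Slc2a1: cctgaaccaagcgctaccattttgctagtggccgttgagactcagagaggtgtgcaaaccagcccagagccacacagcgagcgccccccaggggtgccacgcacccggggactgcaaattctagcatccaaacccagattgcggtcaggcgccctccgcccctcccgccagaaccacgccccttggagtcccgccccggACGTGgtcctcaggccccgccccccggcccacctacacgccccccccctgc

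ACGTG was found on either strand in 8 of 25 hypoxia list genes with a promoter (32%) and in 21.9% of tested genes, and in 91 of 421 genes that faded from higher (21.6%). It was found in 14 of the 36 genes with a promoter that reversed from higher (38.9%). Among the 24 genes named by rank for a fade or reversal, 3 of the 20 with a promoter held it (15%).

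Immediate early genes, which respond to stimuli within minutes, had opposite signs at the 2 weeks. Of 23, 22 were above 0 at week 2 (median 0.93) and 1 at week 6 (median -0.52), against 47% and 50.3% of all genes. NF-kB targets and feedback genes went from 0.91 to -0.47 over 13 genes. Without ACPC-NP week 2 replicate 3 the week 2 medians were 0.06 and -0.13, with 15 of 23 and 5 of 13 above 0, so the week 2 side rested on that library. Nr4a1, an orphan nuclear receptor, measured 91.5, 157 and 257 CPM beside CaP and 140, 182 and 656 beside ACPC-NP at week 2, with overlap, and 580, 244 and 335 against 189, 130 and 184 CPM at week 6, without. Nfkbia, the inhibitor that ends NF-kB signalling, had an interaction of -2.63, or -0.61 without the library.

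B cell genes were lower beside ACPC-NP at both weeks. All 15 were below 0 at week 2 (median -0.32) and 14 were below 0 at week 6 (median -0.66), against 53% and 49.7% of all genes. Ranges stood apart at both weeks for 2 of the 15, against 1.33% of all genes. At an unadjusted p under 0.05, 2 were lower at week 2 (0 without ACPC-NP week 2 replicate 3), against 4.12% of all genes. Lower at week 6 at such a p were 9, against 4.96% of all genes. The score ranges of the list all but touched at week 2, where the lowest CaP score and the highest ACPC-NP score were both -0.21. Cd72, a B cell coreceptor, measured 297, 398 and 392 CPM beside CaP and 247, 231 and 219 beside ACPC-NP at week 2, and 391, 468 and 523 against 214, 239 and 302 CPM at week 6. The log2 differences were -0.64 and -0.87, and the interaction was -0.23 ± 0.37.

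Genes of earlier lymphoid stages had a lower interaction. Vpreb1, part of the surrogate light chain of pre-B cells, ran 9.50, 7.82 and 10.8 against 19.6, 19.4 and 9.82 CPM at week 2 and 15.6, 16.8 and 20.9 against 13.5, 11.6 and 6.04 CPM at week 6. The interaction was -1.57 ± 0.40, and -1.82 without ACPC-NP week 2 replicate 3, which was low among its group here. Lef1, a Wnt effector of B cell progenitors, likewise had -0.97 and -1.28. Dntt, the enzyme that adds bases at antigen receptor joints, had -0.75 and -1.09. Over the 10 pro-B and lymphoid progenitor genes the median was 0.19 at week 2 and -0.36 at week 6.

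Some other single genes had differences that emerged at week 6. Lepr, the leptin receptor, a marker of marrow stroma, stood at 2.34, 1.30 and 2.21 CPM beside CaP and 2.05, 2.37 and 1.46 beside ACPC-NP at week 2. At week 6 it stood at 1.32, 0.87 and 1.61 against 4.19, 4.78 and 4.89 CPM, an interaction of 1.85 ± 0.58. Pparg, the regulator of fat cell formation, reversed from lower at 7.73, 5.56 and 6.00 against 4.53, 4.18 and 4.04 CPM and then 5.28, 5.01 and 5.36 against 6.41, 9.39 and 9.11 CPM. Its interaction was 1.26 ± 0.30. The stroma and marrow fat list as a whole did not emerge in this way. Its score differed by 0.32 at week 2, with ranges apart, and by 0.31 at week 6, with overlap. Over its 13 tested genes the median was 0.01 at week 2 and 0.43 at week 6. Of these genes 8 had an interaction above 0 and 5 below, against 48.2% of all genes above 0.

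Gpx1, the main glutathione peroxidase, emerged as higher, at 1348, 1480 and 1531 CPM beside CaP and 2415, 2365 and 2192 beside ACPC-NP at week 6. C5ar2, a complement receptor (1.00), Dbi, which binds acyl-CoA (0.60), Chp1 (0.59) and Rbpms2 (1.16) were the other named genes of this kind. Lower at week 6 were Pianp (-2.01), which ran 2.89, 5.14 and 5.79 against 1.32, 1.13 and 1.67 CPM, Rem2 (-1.29), a small GTPase of calcium channels, Spata5 (-0.61), Arhgap17 (-0.60) and Map3k1 (-0.56), a stress kinase. The values in brackets are log2 interactions.

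Bone-forming genes had a median below 0 at both weeks. Over 17 osteoblast and mineralisation genes the median was -0.17 at week 2, or 0.07 without ACPC-NP week 2 replicate 3, and -0.68 at week 6. Col1a1, the main bone collagen, measured 10960, 18573 and 25367 CPM beside CaP and 20201, 21172 and 7546 beside ACPC-NP at week 2. The week 6 values were 6561, 6660 and 13583 against 4373, 5617 and 7483 CPM. The ranges overlapped at both weeks, and the interaction was -0.45 ± 0.57. Of the 17, 5 had an interaction above 0, and Alpl, alkaline phosphatase, was the 1 of them with an unadjusted p under 0.05, at 0.89 ± 0.38, from 143, 143 and 141 against 91.5, 112 and 67.3 CPM at week 2. Runx2, the master regulator of osteoblasts, had an interaction of 0.05 ± 0.20. Chondrocyte genes varied widely between libraries of 1 group, with a summed CPM of 279 to 6245 beside CaP at week 6.

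The named fades from the lower side had interactions between 0.47 and 0.81. Spef1, a microtubule-binding protein, measured 12.8, 12.5 and 14.2 CPM beside CaP and 8.23, 8.16 and 7.69 beside ACPC-NP at week 2 and overlapped at week 6, with an interaction of 0.76 ± 0.21. Larp1b (0.47), Mrm1 (0.70), Usp46 (0.57), Dpf3 (0.81) and Hsd17b8 (0.48) followed it. Holding genes included Wnt10b, a Wnt ligand that favours bone over fat, at 5.67, 5.81 and 7.14 against 3.23, 3.23 and 4.77 CPM at week 2 and 12.5, 7.71 and 8.64 against 4.23, 2.71 and 2.86 CPM at week 6. Lower at both weeks were also Arfip2, Dtx3, Nuak1 and Padi3. On the higher side, Pf4, platelet factor 4, held at 33.8, 27.8 and 31.9 against 48.0, 84.9 and 211 CPM and then 25.3, 22.3 and 28.8 against 42.1, 31.0 and 40.2 CPM. Fcgr2b, the inhibitory Fc receptor, held as well with log2 differences of 3.09 at week 2, 1.45 without ACPC-NP week 2 replicate 3, and 0.40 at week 6, and Tmem104, Htr2b, Tbc1d24 and Npl completed the named ones.

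Pcp4l1 had the largest named interaction, 10.10 ± 2.29, from values that switched by library. It stood at 37.8, 0.71 and 1.81 CPM beside CaP and 0.28, 0.71 and 1.01 beside ACPC-NP at week 2, and at 0.97, 0.61 and 0.14 against 27.1, 32.4 and 36.3 CPM at week 6. The week 2 difference came from 1 CaP library, so the reversal of sign has no replicate behind it, while the week 6 ranges stood apart. Voom gave it an adjusted p of 0.112.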

How the data were processed

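Raw, unnormalised counts of reads for each gene symbol in all 18 libraries were deposited by the authors. The tools named in the submitters' processing notes are STAR 2.7.9a, featureCounts (Subread 2.0.1) and bcl2fastq 2.20.0, with the Rnor_6.0 build. The gene annotation and the strand setting are not given there.

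From these counts, filterByExpr (minimum count 10, minimum total 15) kept 11814 of 17337 genes, holding 99.98% of counts. EdgeR 4.0.16 in R 4.3.3 used TMM and a robust quasi-likelihood fit of group means over all 18 libraries (12 residual and 2.92 prior degrees of freedom, biological coefficient of variation 26.0%), tested on simulated data beforehand. CPM used TMM library sizes, and log2 CPM a prior count of 2. Each SE was derived as the size of the log2 difference divided by the square root of its quasi-likelihood F statistic. DESeq2 1.42.0, voom in limma 3.58.1, other filters and scalings, and leaving out each library were the alternatives. No pair of libraries in a group was a duplicate (lowest chi-square per degree of freedom 31.9).

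The members and the 36 lists were chosen with earlier results of these data known. Of 624 list symbols, 556 were tested, and a list's values cover those alone. Named genes were, per direction, the 10 with the smallest interaction p, the 6 with the smallest p without ACPC-NP week 2 replicate 3, 6 per range pattern, 3 per list and a panel of 30, with a mean log2 CPM of at least 1 in all but the list and panel genes; some of these genes are not reported here. A gene with ranges apart at both weeks counts as a reversal or hold even if its difference was 4 times smaller at one week. Symbols matched a RefSeq promoter (GRCr8) for 8956 tested genes.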

Additional observations from a re-analysis of the deposited data

Results flagged for a closer look

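The erythroid list score was flagged because all 3 ACPC-NP libraries lay below all 3 CaP libraries at week 2 and above them at week 6. The score's difference was -0.60 at week 2 and 0.44 at week 6, so the week 6 difference minus the week 2 difference was 1.041 in mean centred log2 CPM over 20 genes. The difference between the weeks was not tested on this score.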

How the results depend on the processing

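Every p-value here comes from 3 libraries a group, and the lowest of them in edgeR did not pass adjustment. With edgeR, DESeq2 size factors, no filter on low counts and the fit on the 12 libraries alone each called 0 genes for the interaction and at each week. DESeq2 called 84 higher and 108 lower, 595 at week 2 and 23 at week 6, and voom 113, 56, 376 and 71. On leaving out 1 library at a time, edgeR called 0 to 5 higher and 0 to 52 lower genes and 0 to 893 at week 2; the highest of each came without ACPC-NP week 2 replicate 1, and 1 higher gene and 141 at week 2 without replicate 2. Without replicate 3, and chosen after seeing the data, DESeq2 called 24 higher and 5 lower. The shares of genes keeping their sign ranged from 26% to 86% for those chosen as higher at week 2, 16% to 64% for those lower at week 2, 11% to 34% for those higher at week 6 (29% with voom) and 51% to 92% for those lower at week 6. The causes were not tested.

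Over 18 pairs of same-numbered libraries the deviations correlated at -0.16 to 0.42, with 9 over 0.1. Of 12 libraries, 5 correlated best with their own number. The replicate numbers come only from the sample titles, so these values cannot tell whether same-numbered libraries shared an animal or a batch. With the replicate block edgeR called 0 genes for the interaction (smallest adjusted p 0.23), at week 2 and at week 6.

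Of 111 named genes under 18 settings each, 1998 values in all, 1889 kept their side of the threshold, 103 passed it (49 with DESeq2, 33 with voom) and 6 changed sign. The sign changes were those of Dtx3 with voom (-0.21) and, on leaving out single libraries, of Dtx3 (range -0.068 to 0.26), Runx2 (-0.060 to 0.15) and Tbc1d24 (-0.045 to 0.21). Without ACPC-NP week 2 replicate 3 the medians that changed sign at week 2 were those of the osteoblast (0.069), collagen (0.036), NF-kB (-0.13), interferon (-0.043), MHC class II (-0.12), proliferation (0.026) and TGF-beta (-0.075) lists, with hypoxia at week 6 (-0.0023) and the NK (0.13) and plasma cell (0.011) interactions.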
